A study of Homo sapiens with 4 samples.

Results

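Coding exons that lie between a pair of long introns were followed in the human breast cancer line MDA-LM2, a lung-metastatic derivative of MDA-MB-231. The members were distinct skipped exons, at least 76 nt long and under 1000 nt, that match an exon within or overlapping the coding span of a GENCODE release 29 transcript. Both flanking introns had to be 5000 nt or longer, and each group had to hold 10 or more reads specific for inclusion or skipping. The rule found 771 exons in 663 genes, out of 8228 exons tested in the whole series under the same read minimum. Without that minimum it found 2914 exons, so 2143 exons between long introns were too thinly covered to be described.

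Cells had been transfected with an RNA called the SSE mimetic, which copies a structural splicing enhancer, or with a scrambled oligo. Each group had 2 samples, but the tables hold 1 pooled read set per group. There is therefore no replicate spread and no test across samples, and nothing in the labels tells whether the samples were separate cultures. Inclusion is given as percent spliced in (Ψ), a fraction from 0 to 1 estimated by the program MISO, with its 95% credible interval in brackets. Counting error is all that these intervals cover, and the labels describe no molecular identifiers, so reads cannot be taken as independent molecules.

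In vertebrate genes most introns are far longer than the exons between them, and the splicing machinery is thought to recognise such exons as units, by pairing the acceptor site upstream with the donor site downstream. When a long intron lies on each side, the exon is a small island in a long stretch of noncoding RNA. SNRPA1, the protein that the SSE is known to bind, belongs to the spliceosomal particle that binds the branch point near the acceptor site. An exon whose length is a multiple of 3 keeps the reading frame when it is skipped, and an exon that brings in a stop codon can send the transcript into nonsense-mediated decay.

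A selection of the called exons is shown here from the transcript sequences of GENCODE release 29, on hg38 and in transcript orientation. Introns are not included. The first set holds wholly coding exons that were called lower under the SSE mimetic, with the last 3 exon bases, which face the donor site, in capitals.
LSM14A chr19:34208929-34209051 (+ strand): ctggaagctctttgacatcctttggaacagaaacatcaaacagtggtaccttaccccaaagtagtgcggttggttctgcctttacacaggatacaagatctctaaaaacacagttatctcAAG
SND1 chr7:128074502-128074690 (+ strand): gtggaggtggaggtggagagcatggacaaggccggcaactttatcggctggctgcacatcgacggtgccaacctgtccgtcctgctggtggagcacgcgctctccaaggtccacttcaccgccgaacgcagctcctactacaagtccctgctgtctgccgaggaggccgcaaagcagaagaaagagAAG
CTNNA1 chr5:138917742-138917898 (+ strand): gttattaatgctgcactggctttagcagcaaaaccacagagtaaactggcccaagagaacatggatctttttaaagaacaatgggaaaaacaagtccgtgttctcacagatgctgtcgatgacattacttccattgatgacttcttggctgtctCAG
The TMBIM4 exon, which was called higher, is wholly coding too, and its last 3 bases, in capitals, lack the final G that most exons have.
TMBIM4 chr12:66160165-66160305 (- strand): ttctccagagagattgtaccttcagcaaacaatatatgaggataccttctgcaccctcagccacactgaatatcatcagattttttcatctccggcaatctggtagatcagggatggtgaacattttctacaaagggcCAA
The next set holds the coding part of exons called higher that bring in a stop codon, which is in capitals.
ABI2 chr2:203355154-203355216 (+ strand): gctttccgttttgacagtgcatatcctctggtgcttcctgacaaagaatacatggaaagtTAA
NSMCE1 chr16:27241813-27241889 (- strand): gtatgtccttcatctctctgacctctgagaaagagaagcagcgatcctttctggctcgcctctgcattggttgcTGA
REEP5 chr5:112892773-112892817 (- strand): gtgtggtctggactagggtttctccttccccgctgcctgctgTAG
PPARG chr3:12371851-12371891 (+ strand): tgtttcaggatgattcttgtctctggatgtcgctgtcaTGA
The last set holds the coding part of exons called higher that bring in a start codon, in capitals.
EIF4E chr4:98909678-98909779 (- strand): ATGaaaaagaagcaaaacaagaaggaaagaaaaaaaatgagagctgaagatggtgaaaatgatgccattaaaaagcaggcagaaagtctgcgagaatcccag
PPP6R3 chr11:68537665-68537891 (+ strand): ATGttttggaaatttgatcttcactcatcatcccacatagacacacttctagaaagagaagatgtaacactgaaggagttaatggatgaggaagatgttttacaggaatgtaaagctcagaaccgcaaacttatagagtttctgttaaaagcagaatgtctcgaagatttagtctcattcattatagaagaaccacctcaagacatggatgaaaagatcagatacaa

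A final G was read in 634 of the 771 exons (82.2%), against 84.5% of 731 coding exons of the same length between introns under 1000 nt. The median GC content was 45.0% (interquartile range 41.0 to 50.4) in the long-intron exons and 54.8% (48.3 to 59.5) in the short-intron exons. The exons between long introns were also longer, with a median of 173 nt against 140 nt. Of the 771 exons, 313 (40.6%) were a multiple of 3, close to the 40.9% of the short-intron exons. Although all members touch a coding span, only 557 were wholly coding in a transcript, while 214 were partly coding. Of those 214, 145 held the start of a coding sequence, 78 the end, and 9 held both in different transcripts.

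Depth differed between the groups and limits every value below. Over the 771 exons there were 20933 inclusion or skipping reads under the SSE mimetic and 103205 under the scrambled oligo, with medians of 19 and 78 per exon. Credible intervals of Ψ had a median width of 0.37 under the SSE mimetic and 0.16 under the scrambled oligo. Reads that matched neither isoform, a class that takes in reads from the flanking introns, numbered 1373879 and 2130156. They amounted to 65.6 for each isoform-specific read under the SSE mimetic and 20.6 under the scrambled oligo. CD44 and AXL, which mark the mesenchymal MDA-MB-231 lineage, had up to 1398 and 226 isoform-matched reads per event under the SSE mimetic, against 10893 and 1090 under the scrambled oligo. The hormone receptor and epithelial genes ESR1, PGR, GATA3 and CDH1 reached at most 15 reads under the SSE mimetic and 31 under the scrambled oligo, and 5 further marker genes had no event.

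Most exons between long introns were included in both groups. The median Ψ was 0.84 under the SSE mimetic and 0.92 under the scrambled oligo, and the median difference was -0.05 (interquartile range -0.10 to 0.00), against -0.03 over all tested exons. A call needed a Bayes factor of 10 or more in the authors' deposited table together with a difference in Ψ of 0.1 or more. By this rule inclusion was higher under the SSE mimetic in 12 exons and lower in 5, while 754 did not pass. The 17 called exons were 2.20% of the members, against 3.99% of all tested exons, and each lay in a different gene. By direction, all tested exons gave 3.10% higher and 0.887% lower.

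**Figure D1:**
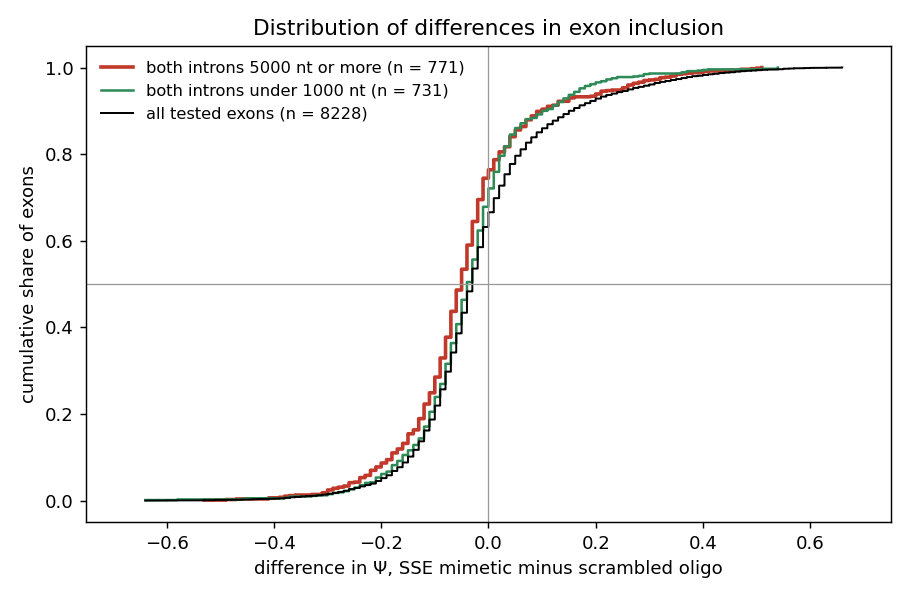
Cumulative share of exons (vertical axis) against the difference in Ψ, SSE mimetic minus scrambled oligo (horizontal axis), for the 771 exons between long introns, 731 coding exons between introns under 1000 nt and all 8228 tested exons. The curves lie close together; the long-intron exons have a median of -0.05, the short-intron exons -0.04 and all exons -0.03.

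Coding exons between short introns had 14 called higher and 7 lower, or 2.87% of 731, and all other coding exons of the same length had 113 and 47, or 3.49% of 4578. The difference between these shares was not tested. Summed over exons, skipping reads were a smaller share of isoform-specific reads between long introns than between short ones. They made up 4.49% under the SSE mimetic and 6.55% under the scrambled oligo, against 11.1% and 17.0% in the short-intron exons. Counted by exon, the shares were closer under the scrambled oligo, where 36.4% of members and 38.2% of short-intron exons had a skipping read. Under the SSE mimetic these shares were 17.9% and 26.9%. Neither group had a skipping read in 469 of the 771 exons (60.8%), which leaves 302 that a test on inclusion and skipping reads can assess at all. The share without any skipping read was 59.4% in the short-intron exons, 59.1% in the other coding exons and 54.8% over all tested exons.

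The 5 exons called lower were all wholly coding, and under the scrambled oligo 4 of them had a Ψ of 0.9 or more, the exception being MGME1 at 0.84. Their median Ψ was 0.46 under the SSE mimetic and 0.94 under the scrambled oligo. Of the 47 called lower in the other coding exons, 42 were wholly coding too. A Ψ of 0.9 or more under the scrambled oligo was found in 30 of those 47. CTNNA1, which encodes the alpha-catenin that ties cadherins to actin, had a 157-nt exon at Ψ 0.37 (0.21 to 0.56) under the SSE mimetic and 0.90 (0.76 to 1.00) under the scrambled oligo. SND1, whose product is a nuclease-domain and Tudor-domain RNA-binding protein, had a 189-nt exon at 0.54 (0.35 to 0.76) against 0.95 (0.88 to 0.99). An exon of 123 nt in LSM14A, which encodes a processing-body protein, stood at 0.49 (0.29 to 0.74) against 0.96 (0.90 to 1.00). The intervals of these 3 exons did not meet between the groups.

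The other 2 exons called lower were in ELK3 and MGME1. ELK3, an ETS transcription factor gene, had a 795-nt exon (chromosome 12, 96246940 to 96247734) at 0.45 (0.31 to 0.67) under the SSE mimetic and 0.94 (0.84 to 0.99) under the scrambled oligo. MGME1, which encodes a mitochondrial exonuclease for DNA maintenance, had an exon of 220 nt (chromosome 20, 17975684 to 17975903) at 0.46 (0.24 to 0.72) against 0.84 (0.68 to 0.97). Its intervals overlap, and the Bayes factor of 10.07 that the authors' deposited table gives lay closest to the minimum among all 17. Of these 5 exons, 3 are multiples of 3 nt: SND1, LSM14A and ELK3. In the other coding exons, 28 of the 47 called lower were multiples of 3 too.

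Skipping reads were nearly absent from these 5 exons. CTNNA1 had 18 inclusion, 0 skipping and 74 shared reads under the SSE mimetic, and 152, 0 and 230 under the scrambled oligo. SND1 had 37 inclusion, 2 skipping and 60 shared reads under the SSE mimetic, against 149, 0 and 95. SND1 was thus the 1 exon of the 5 with any skipping read, and the other 4 had none in either group. Summed over the 5 exons, shared reads per inclusion read were 2.18 under the SSE mimetic and 0.893 under the scrambled oligo. Shared reads fall in the flanking exons and fit either isoform, so a larger ratio lowers Ψ without a read across the skipping junction. In GENCODE, the last exon of 6 transcripts overlaps the CTNNA1 exon, and that of 1 transcript each the SND1 and ELK3 exons. The first exon of 1 transcript each overlaps the LSM14A and ELK3 exons. The share of these transcripts in the reads was not tested.

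**Figure D2:**
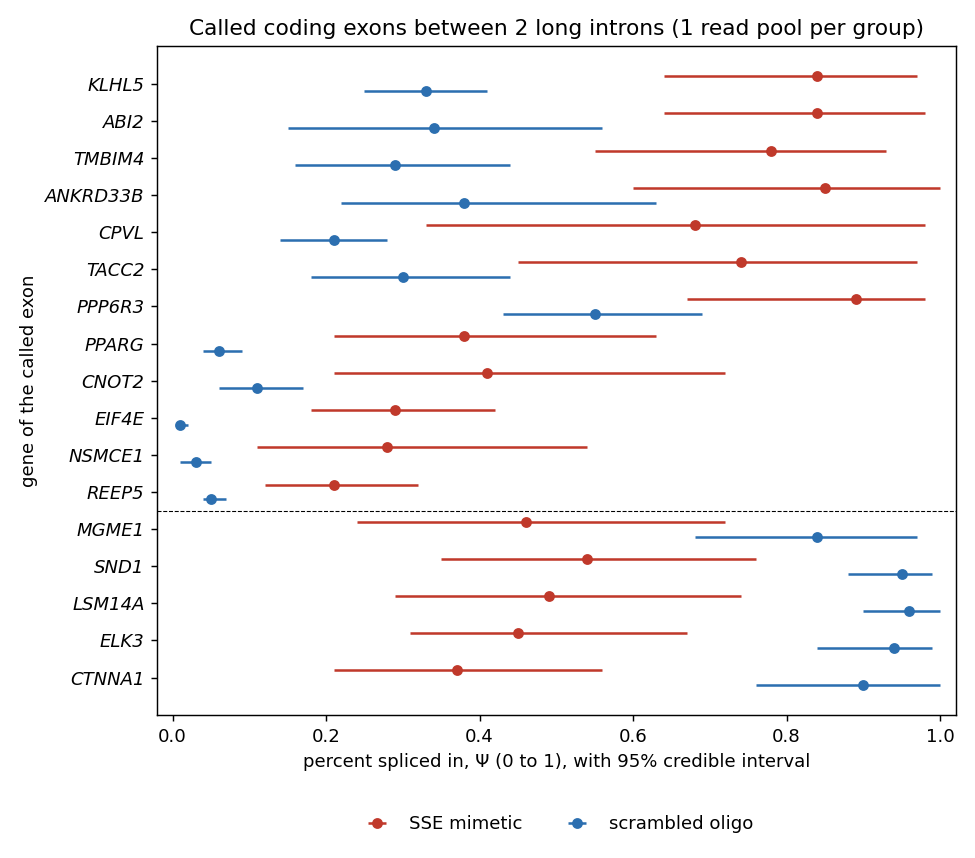
Ψ (horizontal axis, 0 to 1) of the 17 called exons, ordered by difference, with points for the SSE mimetic (red, upper) and the scrambled oligo (blue, lower) and bars for the 95% credible interval. The 12 exons above the dashed line were called higher and the 5 below it lower; the bars meet for ANKRD33B, PPP6R3 and MGME1.

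Of the 12 exons called higher, 9 were only partly coding, and 8 are skipped by more annotated coding transcripts than include them. In the other coding exons of the series, 74 of the 113 called higher were partly coding too. The median Ψ of the 12 exons was 0.71 under the SSE mimetic and 0.25 under the scrambled oligo. An exon near full inclusion has no room to be called higher, so this low Ψ follows in part from the direction of the call. The intervals were apart for 10 of 12. Inclusion reads took a larger share of isoform-specific reads under the SSE mimetic in 10, while CPVL and PPP6R3 had no skipping read in either group.

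EIF4E, which encodes the cap-binding factor of translation initiation, gave the smallest p among the members in the test on inclusion and skipping reads. Its exon of 282 nt (chromosome 4, 98909678 to 98909959, minus strand) carries a start codon in 1 coding transcript and is skipped in 5. Inclusion reads numbered 14 under the SSE mimetic and 12 under the scrambled oligo, and skipping reads 23 and 861. Inclusion reads were thus about as many in the smaller pool as in the larger, while skipping reads were far fewer. At the read density of the flanking introns, the positions inside the exon would hold 7.82 reads under the SSE mimetic and 13.3 under the scrambled oligo. Ψ was 0.29 (0.18 to 0.42) against 0.01 (0.01 to 0.02), with a Bayes factor of 4.97e+09 in the authors' deposited table. Fisher's exact test on these reads, two-sided and adjusted over all tested exons, gave p = 6.54e-11. It compares the pooled read sets, not the conditions. The 2 other tested exons of EIF4E differed by 0.00 and 0.02. GENCODE lists 5 EIF4E pseudogenes, and 1 of CTNNA1, and reads shared with these copies were not examined.

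KLHL5, a kelch-family gene, had the largest positive difference among the members. Its exon of 477 nt (chromosome 4, 39062559 to 39063035) stood at 0.84 (0.64 to 0.97) under the SSE mimetic and 0.33 (0.25 to 0.41) under the scrambled oligo. It had 31 inclusion reads and 1 skipping read under the SSE mimetic, against 66 and 32, and Fisher's exact test gave an adjusted p of 0.0429. First exons of 4 transcripts overlap it, the longest from 39062232 to 39063035, so reads of transcripts that start there also count as inclusion. REEP5, which encodes a membrane-shaping protein of the endoplasmic reticulum, was the third exon to pass that exact test (adjusted p = 2.35e-05). Its 368-nt exon (chromosome 5, 112892450 to 112892817) had 18 inclusion and 6 skipping reads against 49 and 212, and Ψ was 0.21 (0.12 to 0.32) against 0.05 (0.04 to 0.07).

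Over all 771 exons, Fisher's exact test passed for these 3 after adjustment, against 1.01% of all tested exons. At an unadjusted p under 0.05 it passed for 30 (3.89%), against 5.51% of all tested exons. In 24 of the 30 inclusion reads took a larger share under the SSE mimetic, and in 6 a smaller one. Overlapping exons were counted separately: CD44 and PHF3 each gave a pair on the same skipping reads to the 24. None of the exons called lower passed after adjustment, and SND1, with an unadjusted p of 0.0422, was the only 1 of those 5 under 0.05.

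Exons that hold the end of a coding sequence in a transcript made up the largest group of those called higher, 7 of 12. PPP6R3 is among the 7, although no stop codon was read in its exon. ABI2 encodes a subunit of the WAVE complex, which drives actin branching. Its 171-nt exon, known from 1 transcript of the nonsense-mediated decay type and skipped by 13 coding transcripts, had 12 inclusion reads and no skipping read under the SSE mimetic and 8 and 2 under the scrambled oligo. Ψ was 0.84 (0.64 to 0.98) against 0.34 (0.15 to 0.56). ANKRD33B, an ankyrin-repeat gene, had 16 inclusion and 0 skipping reads against 15 and 4, with Ψ at 0.85 (0.60 to 1.00) against 0.38 (0.22 to 0.63). The ABI2 intervals were apart and the ANKRD33B intervals met.

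NSMCE1, which encodes a RING subunit of the SMC5/6 complex, had 10 inclusion reads and 4 skipping reads under the SSE mimetic and 6 and 27 under the scrambled oligo. Ψ was 0.28 (0.11 to 0.54) against 0.03 (0.01 to 0.05). PPARG, the adipocyte nuclear receptor gene, had 14 and 1 such reads against 20 and 24, and Ψ of 0.38 (0.21 to 0.63) against 0.06 (0.04 to 0.09). The intervals were apart for both genes. Fisher's exact test gave an adjusted p of 0.0658 for NSMCE1 and 0.105 for PPARG, short of the threshold. The 2 other tested PPARG exons between long introns differed by -0.15 and -0.08, and those of REEP5 by -0.26 and -0.05.

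CNOT2, which encodes a subunit of the CCR4-NOT deadenylase, has 3 exons in 1 long intron that were all called higher. The member exon (chromosome 12, 70294071 to 70294294) had 9 inclusion reads and 2 skipping reads under the SSE mimetic and 15 and 33 under the scrambled oligo. Its Ψ was 0.41 (0.21 to 0.72) against 0.11 (0.06 to 0.17). The other 2, at 70285400 and at 70301705, match no coding exon and stood at 0.62 against 0.18 and at 0.52 against 0.13. All 3 share the same skipping reads, so they are not independent. PPP6R3, a regulatory subunit gene of protein phosphatase 6, had an exon with the translation start at 0.89 (0.67 to 0.98) against 0.55 (0.43 to 0.69). Its inclusion reads were 34 and 94, its intervals met, and it is kept by 10 coding transcripts and skipped by 2. The last exons of 4 PPP6R3 transcripts and of 1 CNOT2 transcript overlap these exons.

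The wholly coding exons called higher were in TMBIM4, TACC2 and CPVL. TMBIM4, from the Bax inhibitor motif family, had 13 inclusion and 1 skipping read under the SSE mimetic and 11 and 14 under the scrambled oligo, for a Ψ of 0.78 (0.55 to 0.93) against 0.29 (0.16 to 0.44). A second, 439-nt exon in the same TMBIM4 interval, which shares those skipping reads, was at 0.83 against 0.43. TACC2, a centrosomal coiled-coil gene, had 10 and 1 reads against 16 and 20, and 0.74 (0.45 to 0.97) against 0.30 (0.18 to 0.44). CPVL, a carboxypeptidase gene, stood at 0.68 (0.33 to 0.98) against 0.21 (0.14 to 0.28) on 12 and 39 inclusion reads. All 3 exons are multiples of 3 nt, as are 8 of the 12 called higher. Of those called higher elsewhere, 52 of 113 other coding exons and 4 of 14 short-intron exons were multiples of 3. The difference between these shares was not tested.

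Split by what the exon encodes, a classification chosen after the called exons were known, the members had different medians, a difference that was not tested. The 557 wholly coding exons held 3 called higher and 5 called lower, and their median difference was -0.07 (interquartile range -0.12 to -0.02). Among the 78 with the end of a coding sequence 7 were higher and 0 lower, with a median of 0.04 (-0.03 to 0.15). The 145 with a start had 5 higher and 0 lower, and a median of -0.04. Under the scrambled oligo the median Ψ of the members was 0.93 in wholly coding exons and 0.93 in those with a start. It was 0.56 in those with the end of a coding sequence. In the other coding exons of the series the median was -0.05 for wholly coding exons. Those with a start had a median of -0.04, with 10 of 390 called higher and 4 lower. Those with the end of a coding sequence had 0.03, with 65 of 686 called higher and 1 lower. With thinned scrambled reads the medians of the members were 0.00 in wholly coding exons and 0.00 in those with a start. The median was 0.05 in members with the end of a coding sequence. The negative medians were thus not seen at matched read number.

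**Figure D3:**
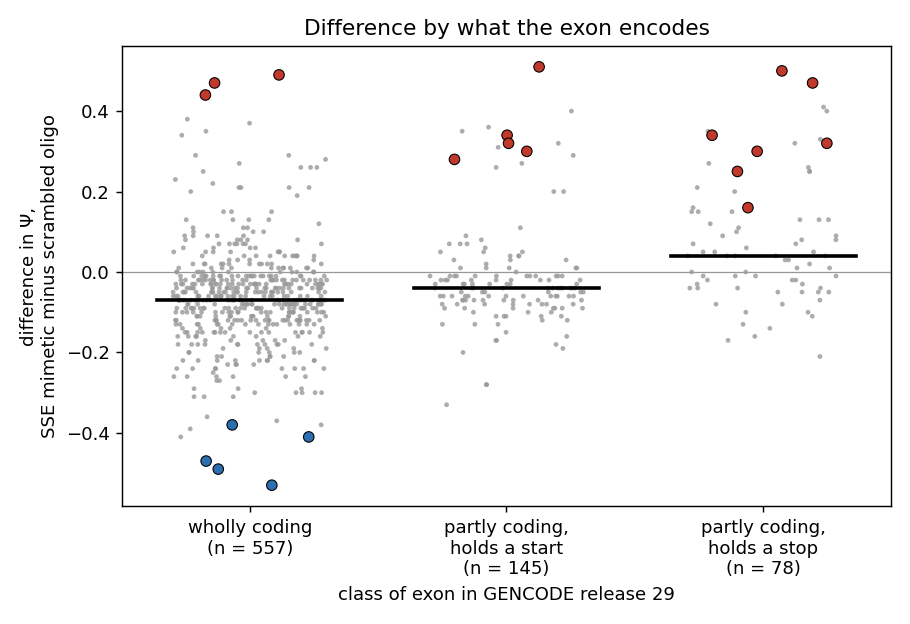
Difference in Ψ, SSE mimetic minus scrambled oligo (vertical axis), for each exon between long introns by its class in GENCODE (horizontal axis); red and blue outlined points were called higher and lower, grey points were not called, and black lines are medians. The class labelled as holding a stop takes exons in which a coding sequence ends, also without a stop codon read, as in PPP6R3. The 9 exons with both a start and an end of a coding sequence appear in both classes. All 5 exons called lower are wholly coding, as were 42 of the 47 called lower in the other coding exons. The medians shown are -0.07, -0.04 and 0.04.

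Calls were also counted by annotated transcripts. In 148 exons no coding transcript skips the exon, and none of these was called. In the same class 1.6% of 689 other coding exons and 2.68% of 112 short-intron exons were called. Of the 415 exons that more coding transcripts include than skip, 2 were called higher and 3 lower, or 1.2%. That share was 2.05% in other coding exons and 0.865% in short-intron exons. Of the 208 with as many or more skipping transcripts, 10 were called higher and 2 lower, or 5.77%, near the 6.14% of other coding exons and the 5.51% of short-intron exons in the same class. Exons with Ψ from 0.1 to 0.5 under the scrambled oligo had a median difference of 0.27 (45 exons, 7 called higher), and the 463 with Ψ of 0.9 or more had -0.07 (0 higher, 4 lower). Since Ψ under the scrambled oligo is also part of the difference, these last values are a description. The other coding exons had medians of 0.16 and -0.07 in the same ranges. In the range from 0.1 to 0.5, 17.8% of them were called higher, against 15.6% of the members. With thinned scrambled reads the medians of the members were 0.19 and -0.01. By the length of the shorter intron, 12 of 426 exons (2.82%) were called at 5000 to 10000 nt and 5 of 231 (2.16%) at 10000 to 20000 nt. Above that length, 0 of 114 were called. The share over all tested exons was 3.99%, and a trend with intron length was not tested.

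Reads at the level of the flanking introns were set beside the inclusion reads, since unspliced RNA over an exon would count as inclusion. This level was taken from all reads matching neither isoform. That class can also hold reads of other exons or isoforms, so the level is not a measure of unspliced RNA alone. The level covers only read positions wholly inside the exon, while inclusion reads also include those across the junctions of the exon. The density of reads matching neither isoform had a median of 39.8 per kb of intron under the SSE mimetic and 60.1 under the scrambled oligo, against 109 and 314 around the short-intron exons. At that density, the positions inside the 12 exons called higher would hold 51.7% of their inclusion reads under the SSE mimetic and 43.8% under the scrambled oligo. For the 754 exons not called these shares were 26.3% and 8.40%, and for the 5 called lower 28.5% and 7.64%. In NSMCE1 the intron level was 11.2 reads against 10 counted under the SSE mimetic, and in ANKRD33B 17.8 against 16. For the 3 exons that passed Fisher's exact test it was 7.82 of 14 in EIF4E, 16.3 of 31 in KLHL5 and 11.6 of 18 in REEP5. In EIF4E it was 13.3 against 12 counted under the scrambled oligo. For ABI2 it was 2.18 of 12 under the SSE mimetic, and for TMBIM4 3.08 of 13. The part of this level in the differences was assessed only through the subtraction below.

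**Figure D4:**
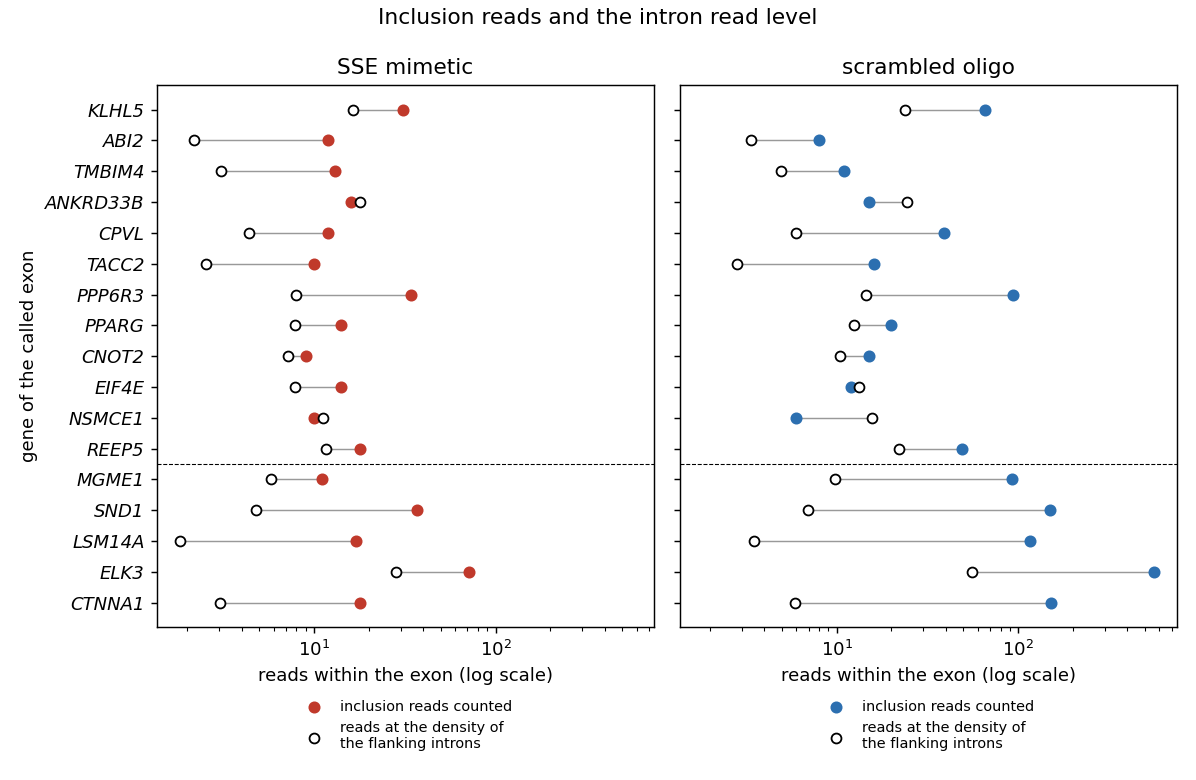
Inclusion reads counted for each called exon (filled points), which include reads across its junctions. Open points are the reads that the density of its flanking introns would give at positions wholly inside the exon. The axis is logarithmic, with the SSE mimetic in the left panel and the scrambled oligo in the right panel. In the SSE mimetic panel the open point lies beyond the filled one for ANKRD33B and NSMCE1; under the scrambled oligo this also holds for EIF4E.

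Next, the intron level was subtracted and Ψ recomputed from the reads with a model of the included and skipped isoforms. Of the called exons, 7 of 12 stayed higher and all 5 stayed lower, while 6 other members became called higher and 3 lower. The totals were then 13 and 8, against 250 and 107 over all 8228 tested exons. EIF4E then differed by 0.19, PPARG by 0.20, KLHL5 by 0.55, ABI2 by 0.62 and TMBIM4 by 0.58. NSMCE1 and REEP5 then differed by 0.04 and 0.07 and were not called, nor were CNOT2 (0.16), CPVL (0.41) and ANKRD33B, which had no isoform-specific read left under the SSE mimetic. On the subtracted reads, EIF4E alone among the members passed Fisher's exact test (adjusted p = 1.44e-06). With the scrambled reads of each exon thinned to the SSE mimetic number in 1 random draw, 6 of 12 and 3 of 5 stayed called. The calls of TMBIM4, CPVL, TACC2, PPP6R3, CNOT2, REEP5, MGME1 and CTNNA1 ended, and the median difference was then 0.00 over the members and 0.00 over all tested exons. KLHL5, ABI2, PPARG, EIF4E, SND1, LSM14A and ELK3 were called in all of these settings.

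**Figure D5:**
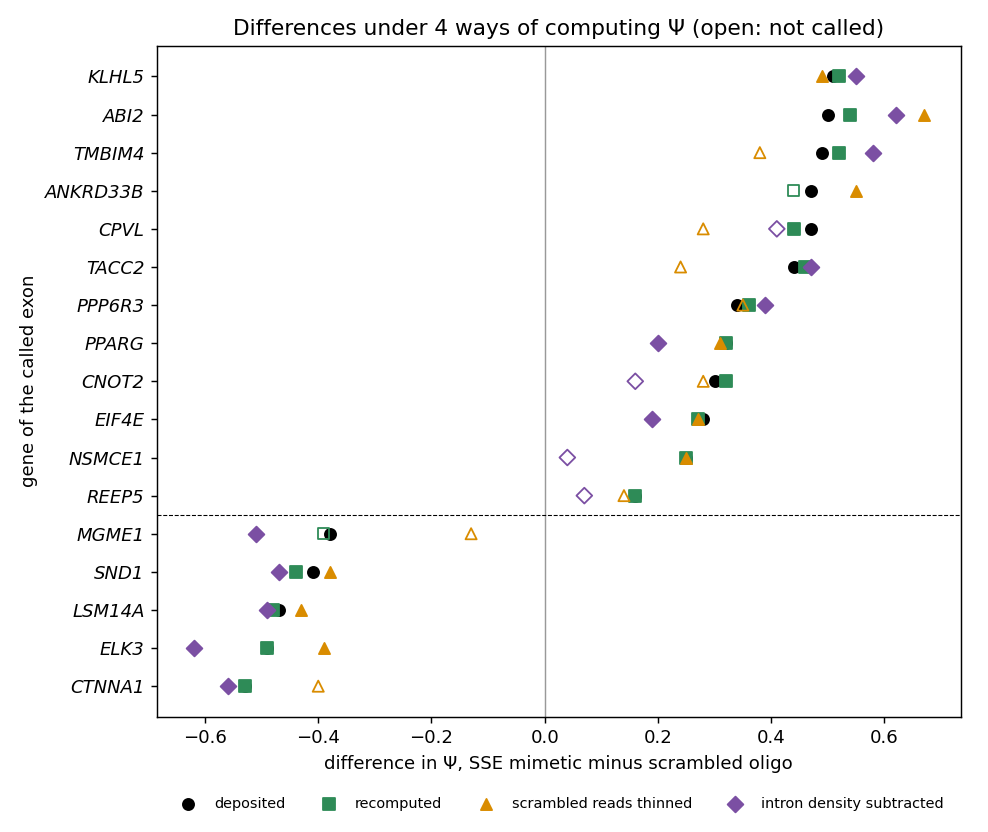
Difference in Ψ, SSE mimetic minus scrambled oligo (horizontal axis), for the 17 called exons as deposited, recomputed from the reads, recomputed with thinned scrambled reads and recomputed after subtraction of the intron read density; open symbols did not pass the call. No symbol crosses 0, and ANKRD33B has no value after subtraction.

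The 6 best-covered members did not pass the call. The 200-nt exon of YWHAE, which encodes the 14-3-3 epsilon adaptor, had 553 inclusion reads under the SSE mimetic and 4268 under the scrambled oligo, no skipping read in either group and Ψ of 1.00 in both. A second YWHAE exon, of 137 nt, and exons of the splicing regulator gene MBNL1, the mitochondrial pyrophosphatase gene PPA2 and the actin-binding gene LASP1 stood at 0.97 to 0.99 against 0.99 to 1.00. The exon shared by AKAP2 and PALM2-AKAP2, an anchor of protein kinase A, was the lowest of the 6, at 0.87 (0.78 to 0.93) against 0.94 (0.92 to 0.95), with 7 and 60 skipping reads. Apart from this exon, both groups were near full inclusion in these deep exons. At the intron threshold, the members just inside were exons of UPF3A, a nonsense-mediated decay factor gene, and of RDH11 (which overlaps AL049779.1), with shorter introns of 5004 and 5007 nt and differences of 0.15 and -0.27. Those just outside were exons of CDCA7L and ARPP19, at 4999 and 4995 nt, with differences of -0.01 and -0.03.

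By function, cytoskeleton and adhesion genes held 22 members, of which 0 were called higher, 1 lower (CTNNA1) and 21 did not pass, with a median difference of -0.06. Since 3.99% of all tested exons were called, lists of this size hold too few members for their counts to stand apart from that share. CTNNA1 had 3 other members, none of them called. The exon just upstream of the called one stood at 0.67 (0.38 to 0.99) against 0.97 (0.91 to 1.00), with a Bayes factor of 0.87 in the authors' deposited table, and the other 2 differed by -0.07 and -0.01. RNA binding and splicing genes had 8 members, with CNOT2 higher and 7 not called (median -0.02). Small GTPase regulators and signalling kinases had 14 members with none called (median -0.06), and chromatin and transcription genes 14 with none called (median -0.09, range -0.24 to 0.40). Ubiquitin and protein turnover genes (11 members, median -0.08), membrane traffic genes (8, median -0.04), and cell cycle and genome maintenance genes (7, median -0.07) had no call either. The 2 members in markers of other cell types were not called, and the median difference over all tested exons was -0.03. Fisher's exact test passed for 0 members of these lists after adjustment over all tested exons.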

How the data were processed

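RNA sequencing libraries of MDA-LM2 cells were made with ScriptSeq v2 reagents after DNase treatment, per the labels' protocols. Reads were aligned with STAR 2.7 to hg38, per the submitters' processing notes. Per the file headers, the deposited tables are MISO skipped-exon summaries, with 1 for each group, and a table comparing both. Which MISO version was run and how samples were pooled is not given in the sources used here. Ψ was deposited as a fraction with a 95% credible interval. The Bayes factor was deposited as a ratio. The difference was deposited as a score, Ψ with the SSE mimetic minus Ψ with the scrambled oligo. Reads per class, deposited as text, gave inclusion, skipping, shared and neither-isoform reads.

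Events (45977 in both summaries) were reduced to 39120 distinct exons, each taken from its event of highest isoform-specific read number, and matched by coordinates to GENCODE release 29. Fisher's exact test used inclusion and skipping reads, with Benjamini-Hochberg adjustment over 8228 tested exons (scipy 1.17.1). Ψ and Bayes factors were recomputed with a 2-isoform likelihood and a uniform prior. Among 7 read lengths tried, 76 nt best matched the deposited Ψ. The steps were tested on simulated data. Named exons were all called members, the 6 best covered, and 2 on each side of the intron threshold. Sequences were limited to 10 exons: called exons that met the stricter minimum of 20 isoform-specific reads per group, except KLHL5 and ELK3, whose coding parts exceed 300 nt, and 6 others chosen by hand, after their values were seen, to show each coding class. Members, lists and rules were chosen with earlier results of these data known. The alternatives were those of the closing section.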

Additional observations from a re-analysis of the deposited data

How the results depend on the processing

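A stricter Bayes factor minimum of 100 left 6 exons higher and 3 lower. With at least 20 isoform-specific reads, which left 353 exons, 4 were higher and 2 lower, and the median difference was -0.04. With flanking introns of at least 10000 nt (345 exons), 4 were higher and 1 lower, and 1 passed Fisher's exact test. With Fisher's exact test in place of the Bayes factor, 3 were higher and 0 lower, and the inclusion share in place of Ψ gave 0 lower and a median difference of 0. Recomputed from the reads, 14 were higher and 5 lower, against 320 and 67 over all 8228 tested exons, and the median was -0.04. With thinned scrambled reads, from 1 random draw, 7 were higher and 3 lower, with a median of 0. Over all tested exons the thinned reads gave 179 higher and 48 lower. Subtracting the density of intron reads gave 13 called higher and 8 lower, and 1 exon passed Fisher's exact test. A minimum difference of 0.2, intervals required to be apart, and counting all events kept both counts within 1.5 times. The KLHL5 call held under each setting applied to calls here; its Fisher p after subtraction was 0.251. No paired analysis was possible because the deposited tables pool the samples of each group, and for the same reason no sample could be left out in turn.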
